A study of Mus musculus with 6 samples.

Results

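The genes described are 4 BMP ligands (*Bmp2*, *Bmp4*, *Bmp6* and *Bmp7*) and 6 genes for secreted proteins that modulate BMPs (*Nog*, *Chrd*, *Grem1*, *Vwc2*, *Vwc2l* and *Bmper*). These 10 genes of 55573 in the count table were listed by name, with earlier results of the same Ezh2 and GFP comparison known. Their values in that comparison are therefore given as a description, without a test. Adult C57BL/6J mice received AAV2-*GFP*, the control virus, or AAV2-*Ezh2* in the vitreous. In both groups the optic nerve was crushed 2 weeks later, and cells of the dissociated retina were sorted 3 days after the crush by surface CD90.2, which *Thy1* encodes, leaving out dye-stained dead cells. RNA-Seq of total RNA gave 3 libraries of each group. *Ezh2* encodes the catalytic subunit of PRC2, which methylates histone H3 at lysine 27, and AAV2 also transduces retinal cells other than retinal ganglion cells (RGCs), which send their axons to the brain through the optic nerve.

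BMPs are secreted dimers that bring together type I and type II serine-threonine kinase receptors. The type II receptor phosphorylates the type I receptor, which phosphorylates SMAD1, SMAD5 or SMAD9, and these enter the nucleus with SMAD4 and switch on genes such as the *Id* family. Outside the cell, antagonists such as noggin, chordin and gremlin bind the ligands and keep them from their receptors. In the eye the pathway is known for dorsal-ventral patterning of the developing retina and for acting on the survival and axon growth of RGCs.

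The labelled cell type was checked against marker genes first. The libraries held 30569933 to 35971192 counts, and levels are given as CPM, counts scaled to the library total. The 12 listed RGC markers summed to between 145 and 149 CPM in GFP libraries and to between 169 and 184 CPM in Ezh2 libraries. Most of this was *Thy1*, at 87.2 to 92.6 CPM with GFP and 98.9 to 114 CPM with Ezh2. *Pou4f1*, a defining transcription factor of RGCs, reached at most 0.6 CPM in any library, and *Pou4f2* and *Pou4f3* were too low to be tested. The 8 Müller glia markers summed to between 24800 and 25400 CPM with GFP and to between 19700 and 25400 CPM with Ezh2, with *Glul* alone at 5450 to 9900 CPM. B and plasma cell markers summed to between 2030 and 3240 CPM over all 6 libraries. The values below are therefore those of a sorted cell mixture in which markers of RGCs were a small part. In such bulk samples, fewer cells of a type and less RNA per cell cannot be told apart.

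**Figure D1:**
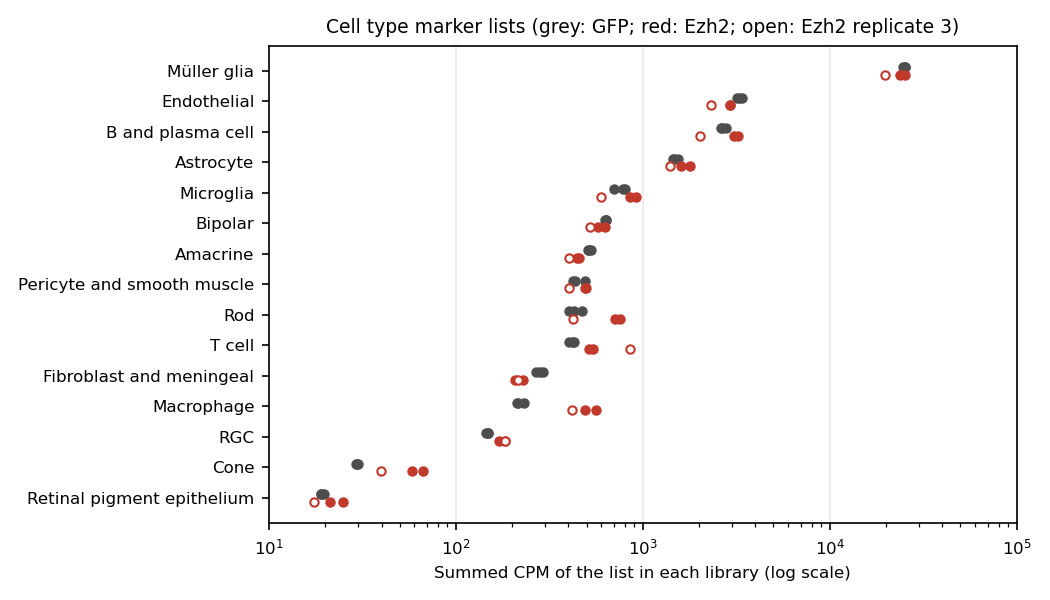
Summed CPM of each cell type marker list (log scale) in each of the 6 libraries, with grey points for GFP, filled red points for Ezh2 replicates 1 and 2 and open red points for Ezh2 replicate 3. Müller glia markers lie between 19700 and 25400 CPM and RGC markers between 145 and 184 CPM.

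The overexpressed gene and the relations of the libraries were examined next. *Ezh2* stood at 28.8, 34.6 and 33.0 CPM in the GFP libraries and at 78.0, 65.3 and 105 CPM in the Ezh2 libraries, higher in every Ezh2 library than in any GFP library. Reads of the viral and the endogenous gene were not separated here, and exons of *Ezh2* overlap the antisense gene *Gm26625*. Log2 CPM of Ezh2 replicate 3 had correlations across genes of 0.971 to 0.972 within its group, against 0.984 to 0.988 for the other pairs within a group. The study left 1 Ezh2 library out, which its heatmap columns show by inference to be replicate 3, so the fit below uses 5 libraries, and values in all 6 stand beside it. A gene counted as called at an adjusted p under 0.05 with a fold change above 1.5 in the quasi-likelihood F test of edgeR, with Benjamini-Hochberg adjustment over all tested genes.

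Of the 10 genes, 7 passed the filter on low counts in both fits. *Vwc2l* was called lower with Ezh2 in both fits, and no other gene of the 10 was called in either direction. DESeq2 and limma-voom gave the same counts in the 5 libraries, 1 lower and 0 higher. Over all tested genes, 1.28% were called lower and 2.52% higher in the 5 libraries, and 0.902% lower and 1.62% higher in all 6. In all 6 libraries the CPM of the groups did not overlap for 4 of the 7 tested genes. *Bmp2* and *Vwc2l* were lower in every Ezh2 library, and *Bmp7* and *Chrd* were higher in every Ezh2 library. Among all tested genes, 34.2% showed no overlap in either direction. At an adjusted p under 0.05 without the fold limit, *Vwc2l* was lower and *Bmp7* higher in the 5 libraries, where 7.68% of all tested genes were lower and 10.1% higher. Since the list was chosen on this contrast, these shares are not evidence about the list.

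**Figure D2:**
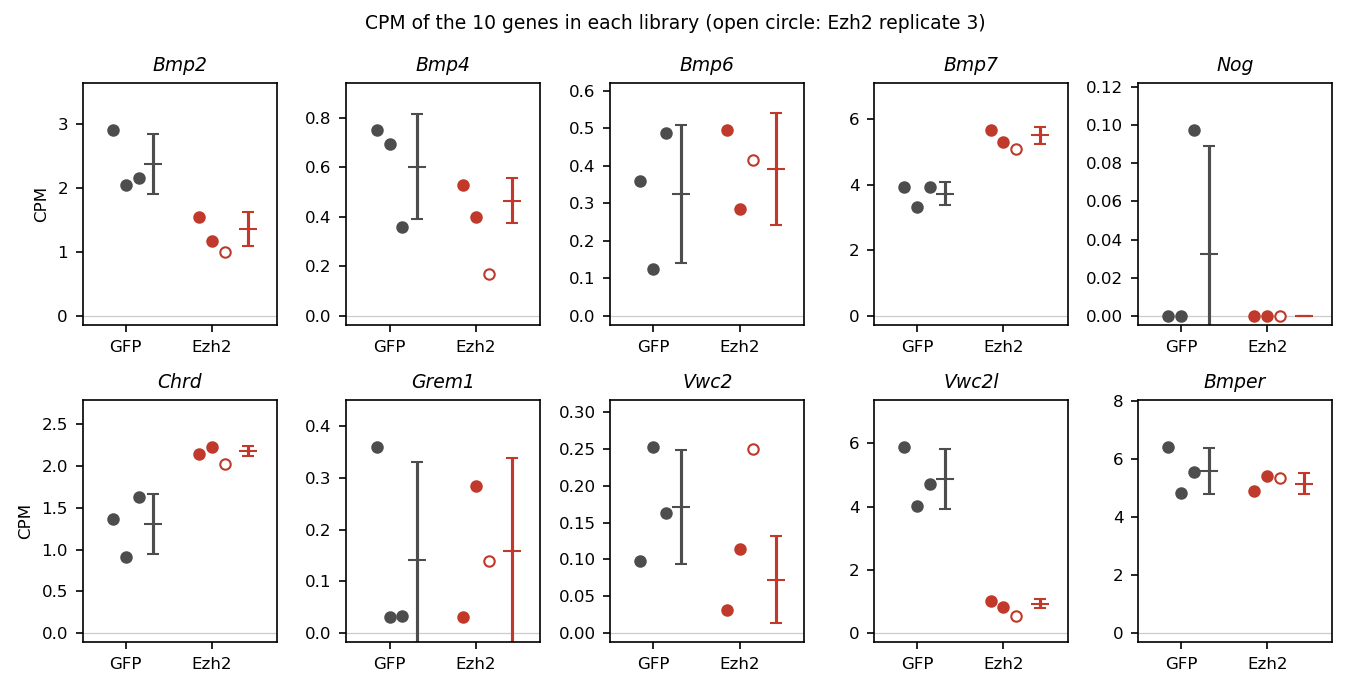
CPM of each of the 10 genes in each library, on a separate axis per gene, with grey points for GFP, filled red points for Ezh2 replicates 1 and 2 and open red points for Ezh2 replicate 3. Bars give mean and SD of the 3 GFP libraries and of Ezh2 replicates 1 and 2, and the groups are apart for *Bmp2*, *Bmp7*, *Chrd* and *Vwc2l*.

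*Vwc2l* encodes brorin-like, a secreted protein with von Willebrand factor C domains of the chordin type that is expressed in neural tissue. It lies at chr1:70725715-70885397 on the plus strand (GRCm38, ENSMUSG00000045648). *Vwc2l* held 180, 127 and 145 counts in GFP replicates 1, 2 and 3, or 5.89, 4.01 and 4.72 CPM. It held 33, 29 and 19 counts in Ezh2 replicates 1, 2 and 3, or 1.02, 0.828 and 0.528 CPM. The lowest GFP library was far above the highest Ezh2 library. The mean was 4.87 ± 0.947 CPM (SD, n = 3) with GFP and 0.926 ± 0.139 CPM (SD, n = 2) in Ezh2 replicates 1 and 2. The fitted log2 fold change was −2.38 ± 0.27 (SE), a 5.21-fold lower level, and −2.58 ± 0.29 with all 6 libraries, a 5.99-fold lower level. The log2 fold change in the 5 libraries stood at the 0.262 percentile of all tested genes.

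*Vwc2*, the paralog that encodes brorin, and *Bmper*, which encodes a crossveinless-type protein that binds BMPs and can either aid or block them, are the other genes of this kind. *Vwc2* held 3, 8 and 5 counts with GFP and 1, 4 and 9 counts with Ezh2 and was not tested. A count of 3, the upper limit that a count of 0 allows, is 0.0834 to 0.0981 CPM in these libraries, so part of the *Vwc2* values lay at this limit, and whether it differed as *Vwc2l* did could not be told at this depth. Its mean was 0.171 ± 0.0777 CPM (SD, n = 3) with GFP and 0.0726 ± 0.0588 CPM (SD, n = 2) in Ezh2 replicates 1 and 2, while Ezh2 replicate 3 stood at 0.25 CPM. *Bmper* stood at 6.41, 4.83 and 5.53 CPM with GFP and at 4.88, 5.4 and 5.34 CPM with Ezh2. The groups overlapped, and the log2 fold change was −0.11 ± 0.19 in 5 libraries and −0.06 ± 0.18 in 6.

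The promoters of *Vwc2l* and *Chrd* are shown because these genes had the largest fitted difference in each direction, and because PRC2 in mammals is known to occupy CpG-rich promoters. RefSeq windows matched 7 of the 10 genes (*Bmp4*, *Bmp6*, *Chrd*, *Grem1*, *Vwc2*, *Vwc2l* and *Bmper*). The 250 bases before the start are given 5′ to 3′ on the strand of the gene from GRCm38.p6, with each CpG in capitals. *Vwc2l* lies at chr1:70725465-70725714 (plus strand) and *Chrd* at chr16:20732877-20733126 (plus strand), each ending at the base before the annotated gene. The RefSeq starts of *Bmp6*, *Vwc2* and *Grem1* differ from the annotated gene starts.
Vwc2l: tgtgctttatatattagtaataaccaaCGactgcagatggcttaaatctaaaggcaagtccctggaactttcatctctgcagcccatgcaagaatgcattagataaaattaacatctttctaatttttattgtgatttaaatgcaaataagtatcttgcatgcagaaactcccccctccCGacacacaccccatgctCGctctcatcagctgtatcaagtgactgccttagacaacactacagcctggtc
Chrd: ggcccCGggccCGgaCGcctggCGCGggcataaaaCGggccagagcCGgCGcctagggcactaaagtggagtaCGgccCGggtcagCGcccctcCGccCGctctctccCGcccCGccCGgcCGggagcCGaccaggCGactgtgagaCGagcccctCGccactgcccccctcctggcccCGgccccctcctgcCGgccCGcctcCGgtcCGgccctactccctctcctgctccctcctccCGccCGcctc
The *Vwc2l* window held 3 CpG and was 40.8% G or C, and 71.0% of 32851 promoter windows held at least as many CpG. The *Chrd* window held 28 CpG and was 78.0% G or C, and 7.61% of windows held at least as many. The median over all windows was 6. The other windows held 10 CpG (*Vwc2*), 11 (*Bmp4*), 22 (*Bmp6*) and 24 (*Bmper* and *Grem1*), so *Vwc2l* had the fewest of the 7 and *Chrd* the most. The palindrome GGCGCC, which reads the same on both strands, occurred once in *Chrd* and once in *Grem1* and in 9.59% of all windows. These counts describe the letters of the windows, and no binding or methylation was measured in these libraries. No window matched *Bmp2*, *Bmp7* or *Nog*, and a link between CpG and the direction of the differences was not tested.

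Among the ligands, *Bmp2*, a ligand of heart and bone development (chr2:133552159-133562885, plus strand), was lower with Ezh2. *Bmp2* stood at 2.91, 2.05 and 2.15 CPM with GFP (89, 65 and 66 counts) and at 1.55, 1.17 and 1.0 CPM with Ezh2 (50, 41 and 36 counts). Every Ezh2 library was below every GFP library. The log2 fold change was −0.79 ± 0.31 in 5 libraries and −0.90 ± 0.27 in 6, which is 1.73-fold and 1.86-fold lower, and *Bmp2* was not called in either. With a filter at a mean of 50 counts, *Bmp2* was also called, at a log2 fold change of −0.80.

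*Bmp7*, a ligand needed for eye and kidney development (chr2:172868012-172940321, minus strand), differed in the other direction. It stood at 3.93, 3.32 and 3.94 CPM with GFP (120, 105 and 121 counts) and at 5.68, 5.31 and 5.09 CPM with Ezh2 (183, 186 and 183 counts). The groups did not overlap, with means of 3.73 ± 0.354 CPM (SD, n = 3) and 5.5 ± 0.264 CPM (SD, n = 2, replicates 1 and 2). The log2 fold change was 0.57 ± 0.20 in 5 libraries and 0.56 ± 0.17 in 6. The 1.49-fold difference in the 5 libraries lay just under the limit of 1.5-fold. With Ezh2 replicate 3, the adjusted p of *Bmp7* no longer passed 0.05.

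*Bmp4*, the ligand that sets dorsal identity in the developing retina (chr14:46383520-46390669, minus strand), stood at 0.752, 0.695 and 0.358 CPM with GFP and at 0.528, 0.4 and 0.167 CPM with Ezh2. The groups overlapped through GFP replicate 3, and the log2 fold change was −0.37 ± 0.55 in 5 libraries and −0.70 ± 0.53 in 6. *Bmp6*, a close relative of *Bmp7* known for iron regulation in the liver (chr13:38345107-38500302, plus strand), stood at 0.36, 0.126 and 0.488 CPM with GFP and at 0.497, 0.285 and 0.417 CPM with Ezh2. The groups overlapped, with a log2 fold change of 0.27 ± 0.70 and 0.34 ± 0.57. At 4 to 23 counts per library, both SEs were too wide to show a difference of the size seen for *Bmp2* or *Bmp7*. *Bmp6* shares exon sequence on the opposite strand with *Txndc5*, which held 3063 to 3765 counts, and the strand setting of the counting is not given in the sources used here, so the *Bmp6* values are uncertain to that extent.

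**Figure D3:**
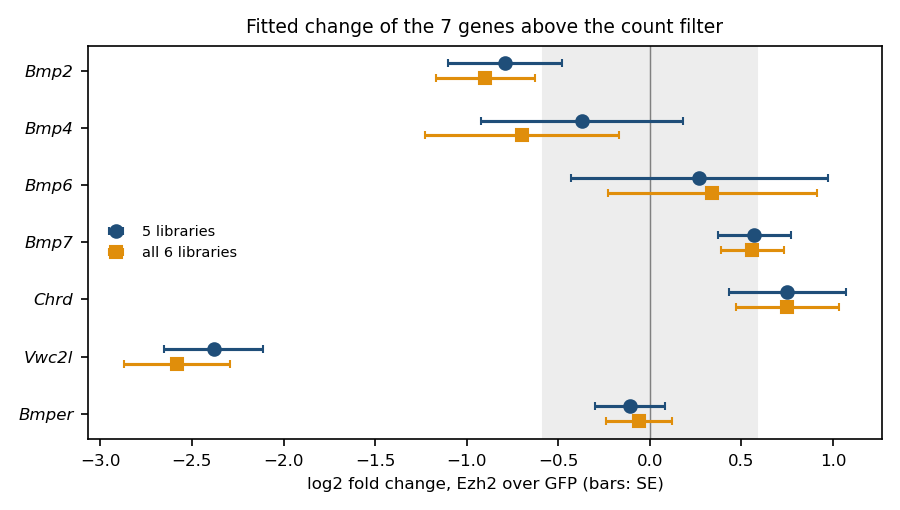
Fitted log2 fold change (Ezh2 over GFP) with SE for the 7 genes that passed the count filter, as circles for the 5 libraries and squares for all 6. The grey band spans fold changes up to 1.5 in either direction, and *Vwc2l* is far outside it at −2.38 and −2.58, while *Bmper* lies near 0.

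Of the genes for noggin, chordin and gremlin, only *Chrd* had enough counts for a test. *Chrd* encodes chordin, which binds BMPs and releases them when tolloid proteases cleave it, and lies at chr16:20733127-20742384 (plus strand). It stood at 1.37, 0.916 and 1.63 CPM with GFP (42, 29 and 50 counts) and at 2.14, 2.23 and 2.03 CPM with Ezh2 (69, 78 and 73 counts). Every Ezh2 library was above every GFP library, and the Ezh2 values were closer together than the GFP values. The log2 fold change was 0.75 ± 0.32 in 5 libraries and 0.75 ± 0.28 in 6, which is 1.69-fold and 1.68-fold higher, and *Chrd* was not called. Its antisense neighbour *Thpo*, with which it shares exon sequence, held 1 to 7 counts per library.

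*Nog* encodes noggin and *Grem1* gremlin, antagonists that bind BMP dimers directly. *Nog* held 0, 0 and 3 counts in the GFP libraries and 0 in each Ezh2 library, so all its values were at or under the floor of 3 counts and no fold is given. *Grem1* held 11, 1 and 1 counts with GFP and 1, 10 and 5 counts with Ezh2. A single library of each group carried most of the *Grem1* counts, and a difference was not detectable at this depth.

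Levels were compared between genes as RPKM, the CPM per kilobase of exon. In the GFP libraries *Bmper* had the highest level, at 1.16 ± 0.164 RPKM (SD, n = 3), followed by *Bmp7* at 0.927 ± 0.0882, *Bmp2* at 0.667 ± 0.132 and *Vwc2l* at 0.634 ± 0.123 RPKM. *Bmper* lay above *Bmp7* in range, while *Bmp2* and *Vwc2l* overlapped. *Bmp4* at 0.268 ± 0.0948 and *Chrd* at 0.209 ± 0.0576 RPKM overlapped each other and lay below *Vwc2l*. *Bmp6*, *Grem1*, *Vwc2* and *Nog* had means of 0.0833 RPKM or less, and each overlapped the next. In the Ezh2 libraries *Bmp7* came first at 1.33 ± 0.0749 RPKM (SD, n = 3), above *Bmper* at 1.08 ± 0.0589 RPKM. *Chrd* reached 0.341 ± 0.0158 RPKM, close to *Bmp2* at 0.349 ± 0.0795 RPKM, and *Vwc2l* stood at 0.103 ± 0.0325 RPKM, close to *Bmp6* at 0.103 ± 0.0274 RPKM.

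**Figure D4:**
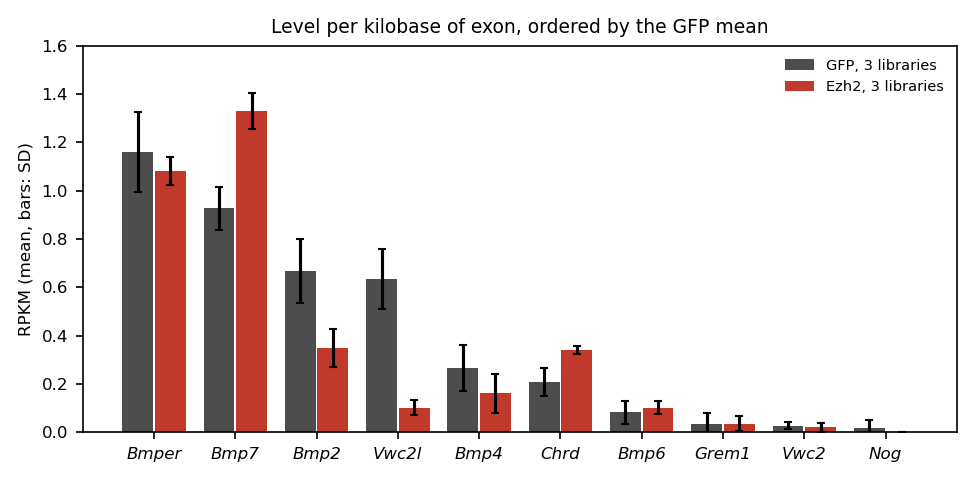
Mean RPKM (CPM per kilobase of exon) of the 10 genes in the 3 GFP libraries (grey) and the 3 Ezh2 libraries (red), ordered by the GFP mean, with SD as bars. *Bmper* leads with GFP at 1.16 RPKM and *Bmp7* with Ezh2 at 1.33 RPKM.

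The genes most like *Vwc2l* across libraries were sought among 13768 genes with a mean of at least 100 counts. By Pearson correlation of log2 CPM over the 6 libraries, *Crim1* (0.998), *Gm1110* (0.998) and *Dach1* (0.997) came first, and 52 genes reached 0.99. The 6 libraries fall into 2 groups, so these values hold the difference between groups and are a description. *Crim1*, which encodes a membrane protein that binds BMPs through cysteine-rich repeats, had a log2 fold change of only −0.28 ± 0.05. *Gm1110* stood at −0.72 ± 0.11 and *Dach1*, a transcription cofactor gene, at −0.26 ± 0.05.

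Markers of other cell types are given beside these values, with calls in the 5 libraries first. The 12 amacrine markers summed to between 510 and 531 CPM with GFP and to 456, 447 and 401 CPM in Ezh2 replicates 1, 2 and 3. Most of this sum was *Pax6*, at 445 CPM with GFP and 398 CPM in Ezh2 replicates 1 and 2. The other members went both ways. Of the 9 tested, *Tfap2b* was called lower (log2 fold change −2.72 ± 0.24, edgeR, adjusted p = 3.74e-08), and *Tfap2c* (2.93 ± 0.38) and *Cartpt* (2.13 ± 0.35) were called higher, in both fits. At an adjusted p under 0.05 alone, 3 amacrine markers were lower and 2 higher in the 5 libraries, and 2 were lower and 2 higher in all 6. The lower ones in both fits included *Slc6a9* (−0.48 ± 0.08, edgeR, adjusted p = 5.83e-05 and 0.0208). *Chat*, *Slc18a3* and *Th* were too low to be tested. Fibroblast and meningeal markers summed to between 267 and 294 CPM with GFP and between 207 and 228 CPM with Ezh2. At an adjusted p under 0.05 alone, 3 of these 7 genes, all collagens, were lower in 5 libraries and 2 in all 6, and *Col1a1* was called lower in the 5 libraries only. The remaining genes did not pass and went both ways. *Foxc1* (log2 fold change 0.50 ± 0.29) was higher in every Ezh2 library than in any GFP library. *Dcn* stood at 0.20 ± 0.22, *Pdgfra* at −0.04 ± 0.09 and *Lum* at −0.60 ± 0.70. Endothelial markers summed to between 3210 and 3380 CPM with GFP and between 2330 and 2940 CPM with Ezh2, but *Kdr* and *Flt1* made up nearly all of the sum. *Flt1* was lower at an adjusted p under 0.05 alone in both fits (log2 fold change −0.29 ± 0.05). The 5 endothelial markers of low level, such as *Pecam1* (0.07 ± 0.11) and *Cdh5* (−0.07 ± 0.25), did not pass, and the list median was −0.07. The Müller glia sums overlapped between the groups, but members of high level went opposite ways. *Glul* stood at 9760 CPM with GFP and 6920 CPM in Ezh2 replicates 1 and 2, and *Apoe* at 5540 and 9050 CPM. Of those 8 genes, 5 were lower at an adjusted p under 0.05 alone in the 5 libraries and 2 in all 6. *Apoe* was called higher in both fits, and *Sox9* (0.11 ± 0.05) and *Vim* (0.13 ± 0.05) did not pass. The part of these cell types in the values of *Vwc2l* and *Bmp2* was not tested.

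Other lists had higher sums with Ezh2, as *Bmp7* and *Chrd* did. Macrophage markers summed to between 213 and 231 CPM with GFP and between 419 and 564 CPM with Ezh2, with 4 of 6 tested genes called higher in both fits. Cone markers summed to between 29.3 and 29.9 CPM with GFP and between 39.5 and 67.0 CPM with Ezh2, with 7 of 8 called higher in the 5 libraries but 2 of 8 in all 6. Rod markers summed to between 401 and 471 CPM with GFP, to 713 and 756 CPM in Ezh2 replicates 1 and 2 and to 423 CPM in Ezh2 replicate 3, with 3 of 8 called higher in the 5 libraries and 0 in all 6. At an unadjusted p under 0.05 in edgeR, 3 of the 8 were higher in all 6. Markers of T cells, which also carry CD90.2, summed to between 402 and 428 CPM with GFP and between 515 and 849 CPM with Ezh2, with 1 of 8 called higher in both fits. RGC markers summed higher as well, with *Nefh* and *Tubb3* the 2 called of 10 tested in the 5 libraries and *Nefl* a further one in all 6. The sums of the astrocyte, microglia and pericyte lists held no single direction. Called in both fits were *Gfap* and *Abcc9*, higher (5-library log2 fold change 1.01 ± 0.08 and 0.69 ± 0.08), and *Sall1*, lower (−0.63 ± 0.10). No listed marker was at 0 in every library, and the part of these lists in the values of *Bmp7* and *Chrd* was not tested.

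Beside the 10 genes, 64 others from lists of BMP and GDF ligands, modulators, receptors, SMAD genes and targets were read from the same fits. Of these, 48 were tested in the 5 libraries, and 0 were called lower and 2 higher in edgeR. In all 6 libraries, 48 were tested as well, and 0 were called lower and 1 higher. At an adjusted p under 0.05 alone, 10 were lower and 5 higher in the 5 libraries, beside 7.68% and 10.1% of all tested genes. In all 6, 4 were lower and 1 higher, where 2.7% of all tested genes were lower and 3.08% higher. At an unadjusted p under 0.05, 14 were lower and 9 higher in the 5 libraries, where 13.8% of all tested genes were lower and 15.5% higher. In all 6, 13 were lower and 6 higher, beside 11.5% and 13% of all tested genes. DESeq2 and limma-voom also called 0 lower, with 1 and 2 higher, and DESeq2 gave no adjusted p for *Gdf15*. Genes other than *Gdf15*, *Fst*, *Neo1*, *Smad5* and *Id2* were chosen for naming after their values were seen, most of them because few genes of their list passed an adjusted p of 0.05. Adjusted p-values are from edgeR, first in 5 and then in all 6 libraries where both are given. Exons of *Bmp5*, *Fst*, *Crim1*, *Bmpr1a* and *Acvrl1* overlap antisense genes, which makes their values uncertain to that extent.

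Of 17 other BMP and GDF ligand genes, 7 were tested, with a median log2 fold change of −0.22 beside −0.01 over all tested genes. *Gdf15*, a stress-induced ligand, was the 1 called higher. It stood at 0.262, 0.316 and 0.163 CPM with GFP and at 0.807, 1.17 and 1.5 CPM with Ezh2, every Ezh2 library above every GFP library. Its log2 fold change was 2.00 ± 0.55 (adjusted p = 0.00901 and 0.0213), from 5 to 10 counts in the GFP libraries and 26 to 54 in the Ezh2 libraries. Without Ezh2 replicate 2 the 5-library fit, with a lone Ezh2 library, gave *Gdf15* a log2 fold change of 1.69. In all 6 libraries, leaving out any GFP library or Ezh2 replicate 2 lost the call, which held without Ezh2 replicate 1. *Bmp3*, an antagonistic BMP ligand and at 26.1 RPKM with GFP above each of the 10 genes, was lower by a small step (log2 fold change −0.30 ± 0.05, adjusted p = 6.65e-05 and 0.0315). *Bmp5* (−0.29 ± 0.10) and *Gdf11* (−0.22 ± 0.07) were lower in the 5 libraries, with adjusted p of 0.128 and 0.0994 in all 6. *Gdf6* had the lowest log2 fold change of the 7, at −0.71 ± 0.26 (adjusted p = 0.0577), and was not called. In all 6 libraries *Gdf6* stood at −0.80 ± 0.24 (adjusted p = 0.0865), with every Ezh2 library below every GFP library. At an unadjusted p under 0.05 in edgeR, 4 of the 7 were lower and 2 higher in each fit.

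Of 17 other secreted modulator genes, 14 were tested, with a median log2 fold change of −0.16. *Fst*, which encodes follistatin, an antagonist of activins and some BMPs, was the 1 called higher. It stood at 1.57, 0.916 and 0.716 CPM with GFP and at 2.33, 2.91 and 1.81 CPM with Ezh2. Its log2 fold change was 1.31 ± 0.33 (adjusted p = 0.00469) in 5 libraries and 1.17 ± 0.34 (adjusted p = 0.0823) in 6, so the call was lost with Ezh2 replicate 3. It was also lost without Ezh2 replicate 2 in the 5-library fit, where *Fst* stood at 1.12 (edgeR, adjusted p = 0.0930). *Bmp1*, a tolloid-type protease that cleaves chordin, was higher by 0.21 ± 0.05 in log2 (adjusted p = 0.00385 and 0.148). The related protease gene *Tll1* was lower (−0.23 ± 0.07, adjusted p = 0.0255 and 0.0946), as were *Crim1* (−0.28 ± 0.05, adjusted p = 0.000104 and 0.0218), *Nbl1* (−0.20 ± 0.05, adjusted p = 0.00605 and 0.0787) and *Fstl1* (−0.17 ± 0.06, adjusted p = 0.0324 and 0.126). Of these 4, only *Crim1* passed in all 6 libraries.

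Of 14 receptor and coreceptor genes, 13 were tested and 0 were called in edgeR, DESeq2 or limma-voom, and the median log2 fold change was −0.12. At an unadjusted p under 0.05 in edgeR, 4 were lower and 1 higher in the 5 libraries, and 4 lower and 0 higher in all 6. *Neo1*, which encodes neogenin, a coreceptor that binds RGM proteins and BMPs, had the most counts. It stood at 649, 657 and 676 CPM with GFP and at 513, 515 and 413 CPM with Ezh2, a log2 fold change of −0.35 ± 0.05 (adjusted p = 3.79e-06 and 0.0170). The type I receptor genes *Bmpr1a* (−0.26 ± 0.05, adjusted p = 0.000368 and 0.0376) and *Bmpr1b* (−0.23 ± 0.06, adjusted p = 0.00637 and 0.125) were also lower in the 5 libraries. *Acvrl1*, a type I receptor gene of endothelium, was higher (0.35 ± 0.11, adjusted p = 0.0267 and 0.254). *Bmpr2*, the type II receptor gene, stood at −0.06 ± 0.05.

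None of the 8 SMAD transducer and inhibitor genes passed an adjusted p of 0.05 in edgeR in the 5 libraries. At an unadjusted p under 0.05, 0 were lower and 1 was higher, DESeq2 and limma-voom called 0, and the median log2 fold change was 0.00. *Smad5* stood at 136, 131 and 140 CPM with GFP and at 123, 132 and 115 CPM with Ezh2 (log2 fold change −0.08 ± 0.06, adjusted p = 0.355 and 0.375). Of 8 listed BMP target genes, 6 were tested and 0 were called in edgeR, DESeq2 or limma-voom. At an unadjusted p under 0.05 in edgeR, 1 was lower and 3 were higher in the 5 libraries, with a median log2 fold change of 0.10, and 0 were lower and 1 was higher in all 6, with a median of 0.04. *Id2*, which encodes an inhibitor of basic helix-loop-helix factors, was at 129, 124 and 115 CPM with GFP and at 138, 143 and 131 CPM with Ezh2, a log2 fold change of 0.21 ± 0.06 (adjusted p = 0.00848 and 0.118). *Id1* stood at 0.05 ± 0.10 and *Id3* at 0.15 ± 0.07, neither past the test.

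**Figure D5:**
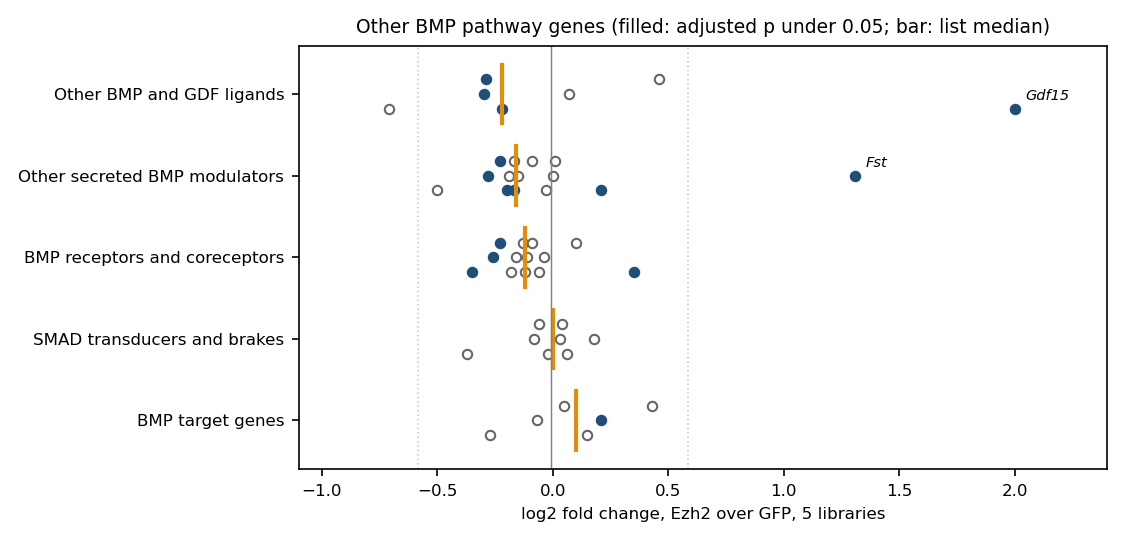
Log2 fold change (Ezh2 over GFP, 5 libraries) of the 48 tested genes of 5 other BMP pathway lists, filled where the adjusted p is under 0.05, with an orange bar at each list median and dotted lines at a fold change of 1.5. Only *Gdf15* (2.00) and *Fst* (1.31) lie past the dotted lines with a filled point, and the list medians lie between −0.22 and 0.10.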

How the data were processed

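The authors deposited raw counts per Ensembl gene for 6 libraries of total RNA (stranded kit, per the labels). The submitters' processing notes name STAR 2.7.0d and GRCm38. The counting program, annotation release and strand setting are not given in the sources used here. Each count column had its sample, with 0 left over, and 55480 of 55573 identifiers matched GENCODE M21, which gave symbols, coordinates and exon lengths. Neither labels nor methods tie libraries to separate animals, so p-values measure the spread between these samples, which may be technical. No 2 libraries of a group were alike within sampling noise.

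After filterByExpr and TMM scaling, group effects were tested (two-sided, no covariate) in edgeR 4.0.16 (R 4.3.3), with robust quasi-likelihood estimation. The SE was taken from the F statistic. The fit was tested on counts simulated for the 5 libraries with a common spread for all genes. Differences in spread between genes and a deviant library were therefore not covered by that test. CPM used library totals, and floors cover counting error only. The excluded Ezh2 library was inferred to be replicate 3.

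The 10 genes, the pathway and marker lists and the tests were chosen with earlier results of these data known. Named by rule were these 10 genes, called genes of each other pathway list (or the gene with most counts), the 3 genes most correlated with *Vwc2l*, *Ezh2* and *Thy1*. Further genes were named outside this rule, those of the pathway lists after their values were seen. Same-numbered libraries did not deviate together (correlations −0.00432, −0.0199 and −0.00924), so the numbers were not taken as pairs. Alternative settings took all 6 libraries, dropped single libraries, or used a replicate block, DESeq2 1.42.0, limma-voom (limma 3.58.1), other scaling factors, other filters and no fold limit. A fit without robust estimation was chosen after seeing the data. A planned comparison of protein sequences was not run. Promoters came from RefSeq (GRCm38.p6). Pictures used matplotlib 3.10.9.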

Additional observations from a re-analysis of the deposited data

How the results depend on the processing

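*Vwc2l* kept its direction and its call under all 21 alternatives, with log2 fold changes from −2.79 to −2.22. *Bmp7* (0.49 to 0.62), *Chrd* (0.55 to 0.96), *Bmp2* (−1.07 to −0.61) and *Bmp4* (−1.03 to −0.18) kept their direction, while *Bmp6* (−0.16 to 0.75) and *Bmper* (−0.21 to 0.05), neither of them called, changed sign when single libraries were left out. Of the 10 genes, 2 were called lower with a filter at a mean of 50 counts (*Bmp2* beside *Vwc2l*), and 1 was called higher without the fold limit. Among the other ligands, 1 was called lower with upper-quartile factors and with the filter at 50 counts, and 3 without the fold limit. The 1 called higher, *Gdf15*, became 0 with DESeq2, which gave it no adjusted p, with that filter, which it did not pass, and with the replicate block in 5 libraries. Among the other modulators, the 1 called higher, *Fst*, became 0 with all 6 libraries and with the replicate block in all 6, and without the fold limit 4 were lower and 2 higher. Without the fold limit, 3 receptor genes were lower and 1 higher, and 1 target gene was higher. With single GFP libraries left out of the 5, other ligands called lower ranged from 0 to 1 (1 without GFP replicate 1). *Gdf15* and *Fst* stayed called in those fits. With a library left out of all 6 and Ezh2 replicate 3 kept, *Fst* was called in no fit. *Gdf15* was then called only without Ezh2 replicate 1, and no other ligand was called lower. Where Ezh2 replicate 1 or 2 was left out of the 5, the lone Ezh2 library was assumed to vary like the GFP group. SMAD genes gave 0 calls in each setting. Over all genes, 770 were called in 5 libraries and 498 in all 6, and leaving a library out gave 624 to 794 from the 5 and 110 to 423 from all 6 where Ezh2 replicate 3 stayed in. The replicate block gave 722 and 396. The target gene median (0.10) was −0.03 without Ezh2 replicate 2. No called result reversed, and the cause of these shifts was not tested. All settings refit the same counts, and the 10 genes were listed with this comparison known. Calls that held among them are therefore a description and not independent evidence. Depth limits *Bmp4*, *Bmp6*, *Nog*, *Grem1* and *Vwc2*, at 0 to 23 counts per library.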
